A study of Mus musculus with 6 samples.

Results

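Interferon-stimulated genes and genes of nucleic acid sensing were followed in erythroid cells of the mouse fetal liver at embryonic day 13.5. The set has 9 members, chosen by name: Isg15, Irf7, Irf9, Stat2, Ifit1, Ifit2, Ifit3, Rsad2 and Tmem173. All 9 were found among the 23094 rows of the table that name a gene, 1 row each, and 5 reached a mean of 1 RPKM over the 6 libraries while 4 did not. RPKM is the number of reads scaled to transcript length and to the mapped reads of the library. The cells were sorted as CD71+Ter119+, that is by the transferrin receptor and a red cell antigen. They came from C57BL/6 mice labelled Tfam KO (3 libraries) or Tfam WT (3 libraries). The labels give no Cre driver, litter or batch. Nor do they say whether the libraries of a group came from different embryos, and each p-value below therefore rests on the spread between libraries, which may be technical.

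Cells detect foreign or misplaced nucleic acid through sensors such as cGAS (DNA) and RIG-I (RNA), whose adaptors Sting (the product of Tmem173) and Mavs lead to the production of interferons. Interferon binds a receptor linked to the kinases Jak1 and Tyk2, and a complex that contains Stat2 and Irf9 then enters the nucleus and binds the interferon-stimulated response element (ISRE) of genes such as Isg15, Rsad2 and the Ifit family. Tfam packages mitochondrial DNA, and in mouse embryonic fibroblasts with less Tfam mitochondrial DNA has been described to engage cGAS and Sting. The comparison asks whether transcripts of this pathway differ in erythroid cells between the labels Tfam KO and Tfam WT.

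The regions upstream of the members were read for letters of the response element. Of the 9 members, 8 have an entry in the RefSeq promoter table of build GRCm38.p6, and Tmem173 has none. The 250 bases before each start were searched on both strands for the ISRE core, which is GAAA, any 2 bases and GAAA again. Windows of 5 members hold at least 1 match, and those of Irf7, Irf9 and Ifit2 hold none of these letters. Among all 32851 windows in the table, 978 (2.98%) hold a match. The windows of the 5 members with a match are printed 5′ to 3′ on the gene strand, with the matches in capitals. In them the searched letters can be read directly.
Isg15: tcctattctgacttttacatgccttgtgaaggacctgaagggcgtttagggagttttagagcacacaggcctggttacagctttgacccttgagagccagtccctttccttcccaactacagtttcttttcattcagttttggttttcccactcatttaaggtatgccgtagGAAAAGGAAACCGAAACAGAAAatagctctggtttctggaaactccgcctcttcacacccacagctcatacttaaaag
Rsad2: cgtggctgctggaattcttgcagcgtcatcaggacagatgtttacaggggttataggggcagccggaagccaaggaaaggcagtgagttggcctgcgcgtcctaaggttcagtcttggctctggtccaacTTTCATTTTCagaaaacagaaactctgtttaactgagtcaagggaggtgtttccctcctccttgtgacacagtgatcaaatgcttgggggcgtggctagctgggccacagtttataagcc
Ifit1: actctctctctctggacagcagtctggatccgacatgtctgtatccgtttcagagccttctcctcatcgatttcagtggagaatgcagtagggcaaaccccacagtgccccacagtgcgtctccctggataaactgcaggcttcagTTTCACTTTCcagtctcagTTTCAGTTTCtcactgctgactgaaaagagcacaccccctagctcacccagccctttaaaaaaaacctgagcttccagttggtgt
Ifit3: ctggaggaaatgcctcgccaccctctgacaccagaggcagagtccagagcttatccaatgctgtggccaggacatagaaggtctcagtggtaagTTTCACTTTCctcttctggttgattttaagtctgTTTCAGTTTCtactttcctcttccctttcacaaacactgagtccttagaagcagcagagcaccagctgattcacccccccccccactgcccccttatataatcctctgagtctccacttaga
Stat2: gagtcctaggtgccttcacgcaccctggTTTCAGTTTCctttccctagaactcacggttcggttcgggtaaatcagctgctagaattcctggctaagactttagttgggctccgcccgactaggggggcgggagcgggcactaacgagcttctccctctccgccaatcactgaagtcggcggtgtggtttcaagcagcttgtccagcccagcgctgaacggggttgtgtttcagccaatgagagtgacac
The Isg15 window is chr4:156200819-156201068 (minus strand) and holds 3 overlapping matches between 78 and 57 bases before the start, a number that 4 of all windows (0.0122%) reach. The Rsad2 window is chr12:26456453-26456702 (minus strand), with 1 match, and the Stat2 window is chr10:128270248-128270497 (plus strand), with 1 match that lies farther out, 222 to 213 bases before the start. The neighbouring Ifit genes have 2 matches each, in chr19:34640639-34640888 (plus strand) for Ifit1 and in chr19:34583279-34583528 (plus strand) for Ifit3. On the gene strand the matches of Rsad2, Ifit1, Ifit3 and Stat2 read as the reverse complement of the searched letters. A match describes the letters only and is not evidence of binding in these cells.

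**Figure D1:**
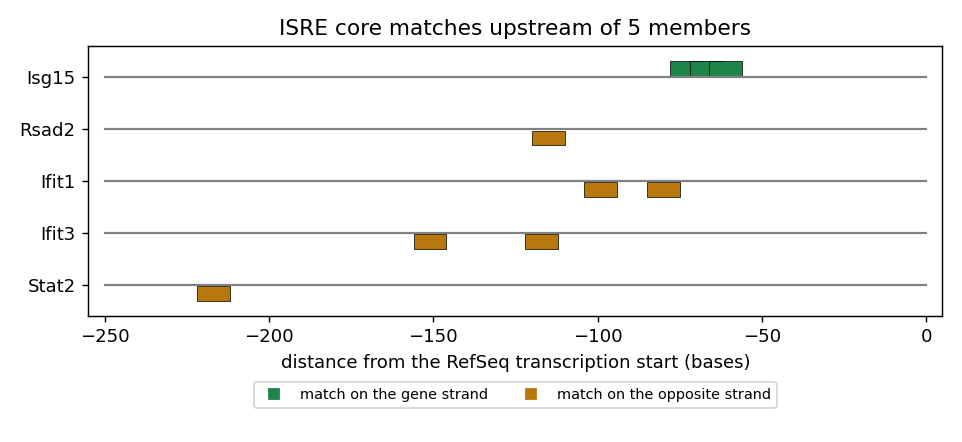
Position of each ISRE core match in the 250 bases before the RefSeq start of 5 members, in bases from the start. Boxes above a line are on the gene strand and boxes below it on the opposite strand; the Isg15 matches overlap at 78 to 57 bases before the start.

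The libraries differ in ways that bear on these genes. WT replicate 3 had an RPKM sum of 815524, while the sums of the other 5 ranged between 423263 and 535933. Across genes its log2 values correlated at 0.930 to 0.962 with the others, which correlated among themselves at 0.973 or more. Relative to the mean over the libraries, on the log2(RPKM + 1) scale, its median deviation was 0.68 in the quintile of shortest transcripts (312 to 1698 bases) and -0.54 in the quintile of longest ones. Tfam itself was at 5.92, 7.22 and 6.25 RPKM in the libraries labelled KO and at 7.22, 8.44 and 5.72 RPKM in those labelled WT (exact two-sided permutation test, p = 0.7, where 3 against 3 cannot go below 0.1). The groups overlapped, so the Tfam values did not separate the labels. A deletion can leave reads on other exons, which a value per gene cannot show, and this was not tested. Tfam is thus no check of the labels here, and the groups are named as labelled.

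Isg15, which encodes a ubiquitin-like protein joined to other proteins after interferon, was the second most abundant row of the set. It was at 24.2, 7.06 and 15.2 RPKM in the libraries labelled KO and at 7.84, 6.85 and 30.3 RPKM in those labelled WT. The highest level was in WT replicate 3 and the next in KO replicate 1, so the groups overlapped. The means were 15.5 ± 8.57 RPKM in KO and 15.0 ± 13.2 RPKM in WT (SD, n = 3 each). The log2 fold change of RPKM + 1, KO over WT, was 0.20 with a 95% interval of -1.24 to 1.64 (limma, adjusted p = 0.931). Isg15 has a transcript of 756 bases, in the shortest quintile, and its deviation in WT replicate 3 was 1.17, against the median of 0.68 for that quintile. The part of transcript length in its level was not tested.

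Rsad2 encodes viperin, an antiviral enzyme of the endoplasmic reticulum. In the libraries labelled KO it was at 2.84, 1.22 and 4.22 RPKM, and in those labelled WT at 0.877, 1.06 and 6.11 RPKM. The libraries numbered 3 were the highest in both groups. The means were 2.76 ± 1.50 RPKM in KO and 2.68 ± 2.97 RPKM in WT (SD, n = 3 each), giving a log2 fold change of 0.23 (limma, 95% interval -1.07 to 1.54, adjusted p = 0.917). Rsad2 has a transcript of 3782 bases, in the second longest quintile, where the median deviation in WT replicate 3 was -0.23, while that of Rsad2 was 1.12.

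Without WT replicate 3 the log2 fold change was 0.84 for Isg15 (95% interval -0.11 to 1.79) and 0.85 for Rsad2 (95% interval 0.09 to 1.61), and neither passed (limma, adjusted p = 1 for each, with an unadjusted p of 0.0767 for Isg15 and 0.0323 for Rsad2), while 1 of the 8302 rows did (0.012%). Every KO library then lay above the remaining WT libraries for Rsad2, and for Isg15 the groups still overlapped, with 7.06 RPKM in KO replicate 2 and 7.84 RPKM in WT replicate 1. In that comparison 5.42% of the 8302 rows tested had all KO libraries above the WT libraries. With both libraries numbered 3 left out, an alternative chosen after seeing the data, the log2 fold changes were 0.77 for Isg15 and 0.57 for Rsad2. Libraries with the same replicate number are called numbered pairs here, although no label states that they are paired. Within the numbered pairs the log2 ratio of KO to WT differed in sign. For Isg15 it was 1.51, 0.04 and -0.95 in pairs 1, 2 and 3, and for Rsad2 it was 1.03, 0.11 and -0.45.

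The transcription factors of the response varied less. Irf7, the interferon-induced factor that amplifies interferon production, was at 8.24, 4.15 and 4.28 RPKM in the libraries labelled KO and at 5.83, 3.70 and 8.14 RPKM in those labelled WT. KO replicate 1 and WT replicate 3 were nearly equal at the top, as they were the highest 2 for Isg15. The difference on the log2 scale was -0.074 (limma, 95% interval -0.82 to 0.68, adjusted p = 0.949) and 0.16 without WT replicate 3. Stat2, a subunit of the response complex, was at 3.55, 2.82 and 2.52 RPKM in KO and at 3.16, 3.17 and 2.35 RPKM in WT. Here the libraries numbered 3 were the lowest of each group, and the log2 fold change came to 0.025 (95% interval -0.37 to 0.42; limma, adjusted p = 0.967). The row of Irf9, the DNA-binding part of the complex, also names Rnf31, a subunit of a ubiquitin ligase, so its value cannot be assigned to Irf9. It was at 26.2, 19.9 and 21.1 RPKM in KO and at 29.0, 22.1 and 25.0 RPKM in WT, the most abundant row of the set. The KO library was below the WT library of the same number in each of the 3 pairs, with log2 ratios of -0.14, -0.15 and -0.23. The groups overlapped, with a log2 fold change of -0.17 (95% interval -0.59 to 0.24; limma, adjusted p = 0.909). Other rows named below also kept the same direction in all 3 pairs, and the share over all rows was not counted.

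**Figure D2:**
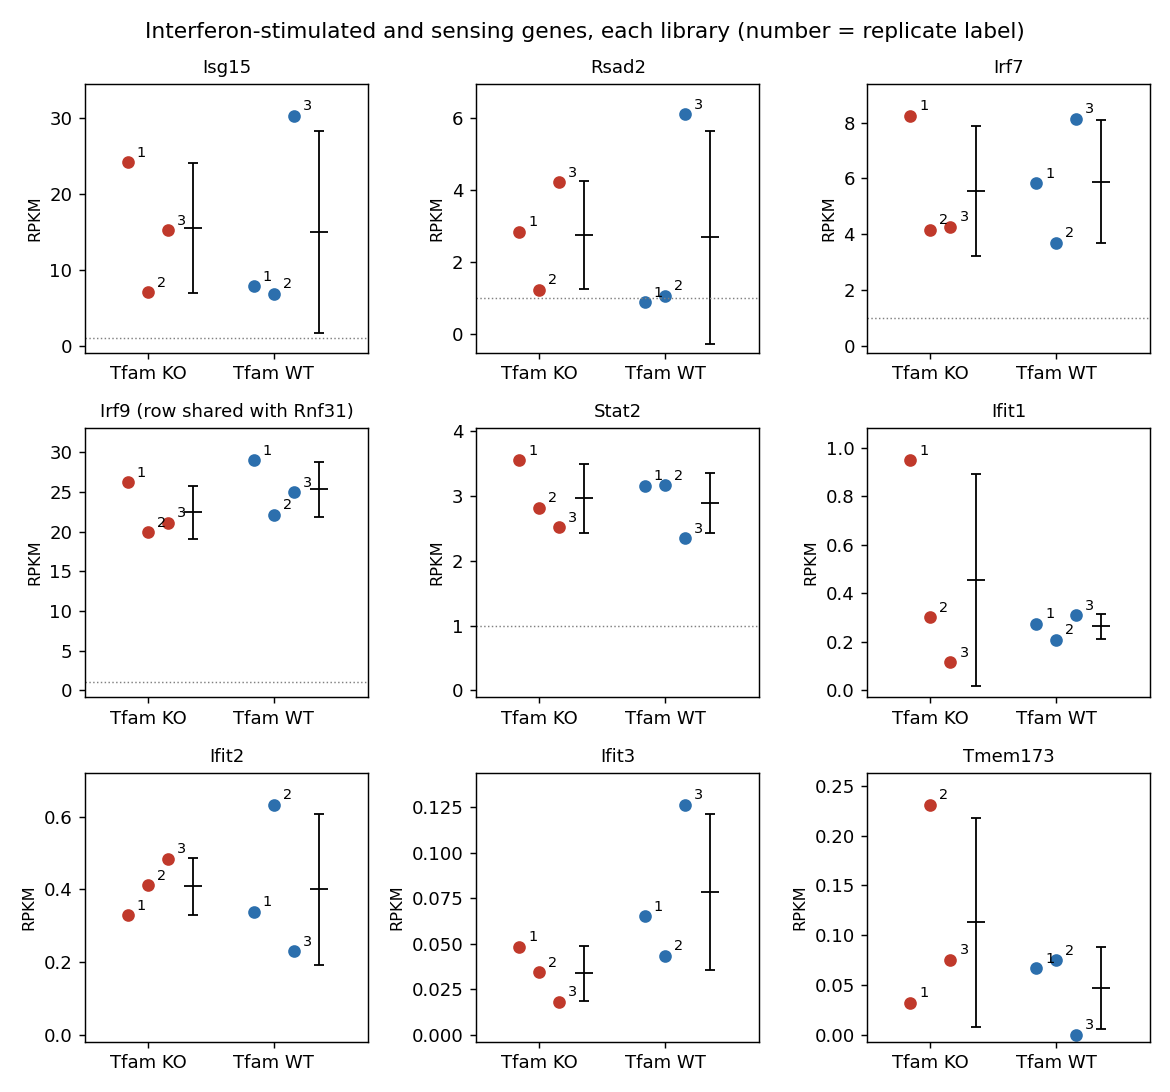
RPKM of each member in the 3 libraries labelled Tfam KO (red, left) and the 3 labelled Tfam WT (blue, right), with the replicate number beside each point, the mean and SD (n = 3) as black bars, and a dotted line at 1 RPKM where the mean reaches it. WT replicate 3 and KO replicate 1 hold the highest Isg15 levels (30.3 and 24.2 RPKM), and the groups overlap in every panel.

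The remaining members were below 1 RPKM in mean. Ifit1, which binds RNA lacking the cap methylation of host transcripts, was at 0.947, 0.302 and 0.116 RPKM in the libraries labelled KO and at 0.274, 0.209 and 0.310 RPKM in those labelled WT. The KO libraries held both the highest and the lowest value. Ifit2, a relative that also binds RNA, was at 0.328, 0.411 and 0.484 RPKM in KO and at 0.338, 0.632 and 0.229 RPKM in WT. Ifit3, which forms complexes with Ifit1 in human cells, was at 0.0485, 0.0345 and 0.0181 RPKM in KO and at 0.0651, 0.0435 and 0.126 RPKM in WT. Its KO value was lower within each numbered pair, at levels at or below 0.126 RPKM, and reads could be shared with near-identical Ifit copies. Tmem173, which encodes the DNA sensing adaptor Sting, was at 0.0321, 0.231 and 0.0752 RPKM in KO, and at 0.0667 and 0.0746 RPKM in WT replicates 1 and 2, with WT replicate 3 listed at 0. These 4 members were not tested in the main fit. With no filter on low values none had an unadjusted p under 0.05, and the lowest among them was 0.0996 for Ifit3 (limma, adjusted p = 0.931).

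Of the 5 members tested, 0 passed an adjusted p of 0.05 (limma), as did 0 of the 8302 rows tested (0%). At an unadjusted p under 0.05 there were 0 of the 5 members and 100 of the rows (1.2%). The groups overlapped in each of the 5 members, while in 4.54% of rows they did not. Fitted values were above 0 for 3 of the 5 members and below 0 for 2, where 47% of rows were above 0, with a median log2 fold change of 0.025, against -0.019 for the rows tested. This count and median turned with single libraries: 1 of 5 was above 0 in each case without KO replicate 1 (median -0.18), without WT replicate 1 (median -0.074) and without WT replicate 2 (median -0.16). The median was 0.072 without KO replicate 2, 0.055 without KO replicate 3 and 0.16 without WT replicate 3. With equal RPKM sums 5 of 5 were above 0 (median 0.18, where that of all rows was 0.17), and with quantile normalization 2 of 5 (median -0.049). The intervals show the precision that 3 libraries a group gave: they span changes of about 1 or more log2 units in either direction for Isg15 and Rsad2, and less than 1 unit for Irf7, Stat2 and the Irf9 row. With the replicate block they were narrower, at -0.94 to 1.34 for Isg15 and -0.50 to 0.97 for Rsad2, and neither gene passed. A p that misses the threshold does not show that the levels were alike.

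**Figure D3:**
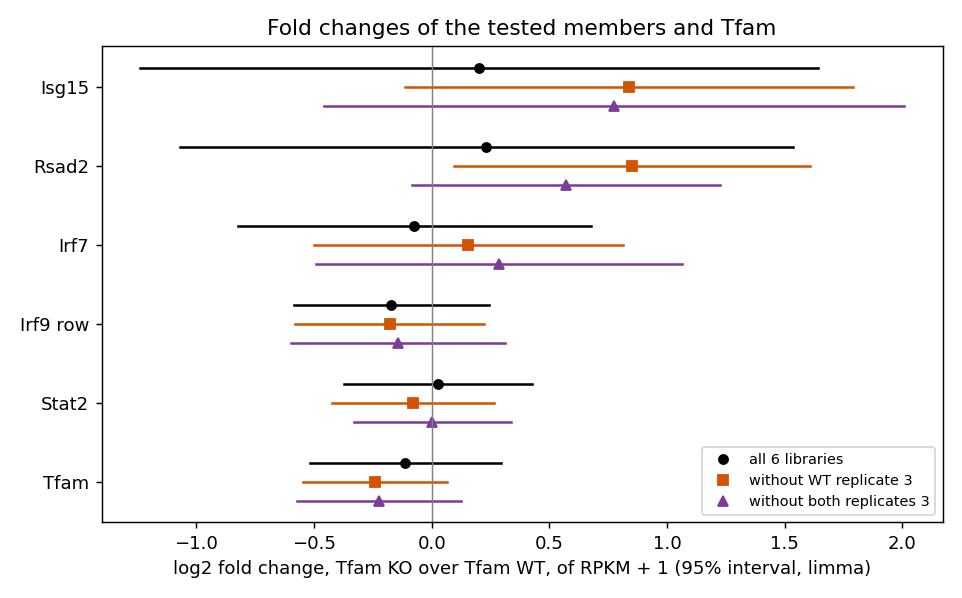
Log2 fold change of RPKM + 1, Tfam KO over Tfam WT, with 95% intervals from limma for the 5 members tested and Tfam, using all 6 libraries, without WT replicate 3, and without both libraries numbered 3. The Isg15 and Rsad2 estimates are 0.20 and 0.23 with all libraries and 0.84 and 0.85 without WT replicate 3, and the only interval above 0 is that of Rsad2 without WT replicate 3 (adjusted p = 1).

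Other genes of the pathway were taken from 9 lists with 115 entries. Of these, 111 were found on a row, 53 reached a mean of 1 RPKM, on 52 distinct rows, and 58 did not. By limma 0 of the 52 rows passed in either direction, as did 0 of the 8302 rows tested. An unadjusted p under 0.05 was found in 0 of the 52, against 1.2% of all rows (limma). In the alternative fit with the replicate block it was found in 3 of the 52, against 324 of the 8302 rows (limma), and 0 passed. Groups did not overlap in 0 of the 52, against 4.54% of all rows. The median log2 fold change over the 52 rows was 0.035, with 28 above 0 and 24 below, against -0.019 for all rows. Without WT replicate 3 it was 0.0021, against -0.013 for all rows. Within each list named here up to 3 genes are given, from those with the highest mean level. Any further gene is marked as chosen after its values were seen.

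Interferon genes were at the floor of the table. Of 14 ligand genes found, 13 were listed at 0 in all 6 libraries, among them Ifnb1 and the alpha interferons, and Ifng reached 0.0695 RPKM in WT replicate 3 only. A listed 0 can be a failed estimate, since Hmgcs1, an enzyme of cholesterol synthesis used by dividing cells, was also listed at 0 throughout. These genes were chosen after their values were seen. Receptor components were present. The row shared by the receptor genes Ifnar2 and Il10rb was at 66.4, 50.4 and 69.9 RPKM in KO and at 57.0, 49.6 and 86.1 RPKM in WT. The kinase Jak1 was at 29.6, 22.5 and 27.7 RPKM in KO and at 24.3, 24.3 and 18.6 RPKM in WT, and Jak2, which also serves the erythropoietin receptor, at 40.5 to 47.5 RPKM in KO and 31.3 to 44.8 RPKM in WT. For both kinases WT replicate 3 was the lowest library. Irf3, the factor activated by the sensing kinases, was at 13.1 to 14.6 RPKM in KO and 14.2 to 24.1 RPKM in WT, and Irf2, a repressor of the response, at 5.80 to 7.68 RPKM in KO and 5.64 to 7.47 RPKM in WT.

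Among 13 sensors only 3 reached 1 RPKM in mean. Aim2, a cytosolic DNA sensor that assembles an inflammasome, was the highest. It was at 19.8, 16.5 and 15.3 RPKM in the libraries labelled KO and at 15.5, 11.2 and 12.6 RPKM in those labelled WT. The KO library was the higher in each numbered pair, and the groups overlapped by KO replicate 3 and WT replicate 1. The log2 fold change was 0.37 (95% interval -0.044 to 0.79; limma, adjusted p = 0.909). The same direction in all numbered pairs was not particular to Aim2. KO was the lower in each pair for Irf3, Ddx41, Ube2l6, Socs3, Isg20, Rnaseh2b and the row of Dnase2a. It was the higher for the row of Uba7 and for Oasl2, given below. Pathway rows not named here also kept the same direction in all pairs, some higher and some lower in KO. Ddx41, a helicase with a described role in DNA sensing, was at 8.83 to 12.0 RPKM in KO and 10.6 to 16.8 RPKM in WT, and Ifih1, the RNA sensor Mda5, at 1.58 to 2.47 RPKM in KO and 1.70 to 2.13 RPKM in WT. The DNA sensor cGAS (Mb21d1 in the table) was at 0.116 to 0.149 RPKM in KO and 0.0518 to 0.153 RPKM in WT, and the RNA sensor RIG-I (Ddx58) at 0.0647 to 0.184 RPKM in KO and 0.0648 to 0.110 RPKM in WT. These last 2 were chosen after their values were seen, because cGAS acts through Sting. On the RPKM scale, cGAS and Tmem173 were thus low in the libraries of both labels, while Aim2 was not. Downstream of the RNA sensors, the adaptor Mavs was at 41.3 to 56.6 RPKM in KO and 43.7 to 50.2 RPKM in WT. The kinase Tbk1 was at 19.9 to 24.9 RPKM in KO and 20.6 to 23.5 RPKM in WT, and its partner Tank at 23.7 to 24.9 RPKM in KO and 19.1 to 26.5 RPKM in WT.

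The enzymes that join Isg15 to proteins differed in level per length. Ube2l6, the conjugating enzyme of this reaction, was above Isg15 in every library, at 880, 792 and 1231 RPKM in the libraries labelled KO and at 1017, 838 and 2168 RPKM in those labelled WT. WT replicate 3 stood above the other libraries. The row of Uba7, the activating enzyme, is shared with Traip and was at 143 to 185 RPKM in KO and 123 to 154 RPKM in WT. Herc6, the ligase of the reaction in mouse (chosen after its values were seen), was at 1.66 to 1.99 RPKM in KO and 1.32 to 1.99 RPKM in WT. Socs3, a feedback inhibitor of cytokine receptors, was at 25.0 to 29.7 RPKM in KO and at 29.3 to 37.2 RPKM in WT.

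Genes that clear the cell's own nucleic acid had 7 of 7 tested rows with a fitted value below 0 and a median log2 fold change of -0.26, and 0 of 7 passed (limma). Without WT replicate 3 the median was -0.0033, with 4 of 7 below 0, and with equal RPKM sums it was -0.036, with 4 of 7 below 0, where the median of all rows moved to 0.17. Rnaseh2c, a subunit of ribonuclease H2, was at 154, 169 and 231 RPKM in KO and at 184, 160 and 616 RPKM in WT, and the subunit Rnaseh2b at 47.6, 54.8 and 77.1 RPKM in KO and at 61.7, 57.7 and 131 RPKM in WT. WT replicate 3 was again the highest library. The row that names the lysosomal nuclease Dnase2a also names the erythroid factor Klf1, at 384 to 630 RPKM in KO and 415 to 1145 RPKM in WT.

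Antiviral effectors had 17 of 37 entries at 1 RPKM or more, with 9 fitted values above 0 and 8 below and a median of 0.020. The list median was -0.081 with quantile normalization (7 of 17 above 0). With equal RPKM sums it was 0.13 (12 of 17), below the median of all rows, which moved to 0.17. The list median was 0.12 without WT replicate 3 (11 of 17), 0.13 without KO replicate 2, 0.064 without KO replicate 3 and 0.058 without WT replicate 1. It turned to -0.095 without WT replicate 2 and -0.045 without KO replicate 1. In these settings other than equal RPKM sums the median of all rows was between -0.036 and -0.0036. The row of the interferon-induced GTPases Igtp and Irgm2 was at 6.73, 2.22 and 127 RPKM in the libraries labelled KO and at 3.25, 1.88 and 132 RPKM in those labelled WT. The libraries numbered 3 were the high ones in both groups. Isg20, an exonuclease induced by interferon, was at 29.1, 29.2 and 75.6 RPKM in KO and at 33.5, 35.2 and 231 RPKM in WT. It was also highest in the libraries numbered 3, as was Rsad2. Zc3hav1, the antiviral protein Zap, was at 66.6 to 92.6 RPKM in KO and 61.4 to 83.9 RPKM in WT, with WT replicate 3 the lowest. Oasl2 (chosen after its values were seen) was at 8.004, 2.65 and 1.98 RPKM in KO and at 3.16, 0.976 and 0.953 RPKM in WT. It had the highest fitted value of the 52 pathway rows, 0.87, and Isg20 the lowest, -0.69. The Oasl2 interval was -0.25 to 1.99 (limma, adjusted p = 0.909). Its KO library was the higher in each numbered pair, with log2 ratios of 1.11, 0.88 and 0.61, and the groups overlapped. Without WT replicate 3 its fitted value was 0.68. The high values of the libraries numbered 3 therefore concerned some effectors and not others. WT replicate 3 also had higher values for short transcripts and lower ones for long transcripts. The part of transcript length in the levels of these effectors was not tested. The labels give no litter or batch that would mark the libraries numbered 3.

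In antigen presentation, B2m, the light chain of class I molecules, was at 37.5, 33.1 and 47.6 RPKM in KO and at 29.0, 30.9 and 54.4 RPKM in WT. The class I heavy chain H2-K1 was at 3.77, 3.98 and 3.35 RPKM in KO and at 2.85, 2.63 and 3.99 RPKM in WT. The row of H2-D1, shared with H2-L and with another locus, was at 19.3, 17.2 and 16.6 RPKM in KO and at 14.2, 14.1 and 22.6 RPKM in WT. In each of these 3 rows WT replicate 3 was the highest library and WT replicates 1 and 2 the lowest. Without WT replicate 3 the log2 fold changes were 0.37 for B2m, 0.33 for H2-K1 and 0.31 for the H2-D1 row, with groups that did not overlap and an adjusted p of 1 for each (limma). The list had 4 tested rows, and the remaining row went the other way. This was Psmb10 (chosen after its values were seen), at -0.40 with all libraries and -0.31 without WT replicate 3. Over all lists, 5 of the 52 rows then had groups that did not overlap, against 11.3% of all rows, so the share in the pathway was near the background. Reads of class I genes could be split between near-identical copies.

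**Figure D4:**
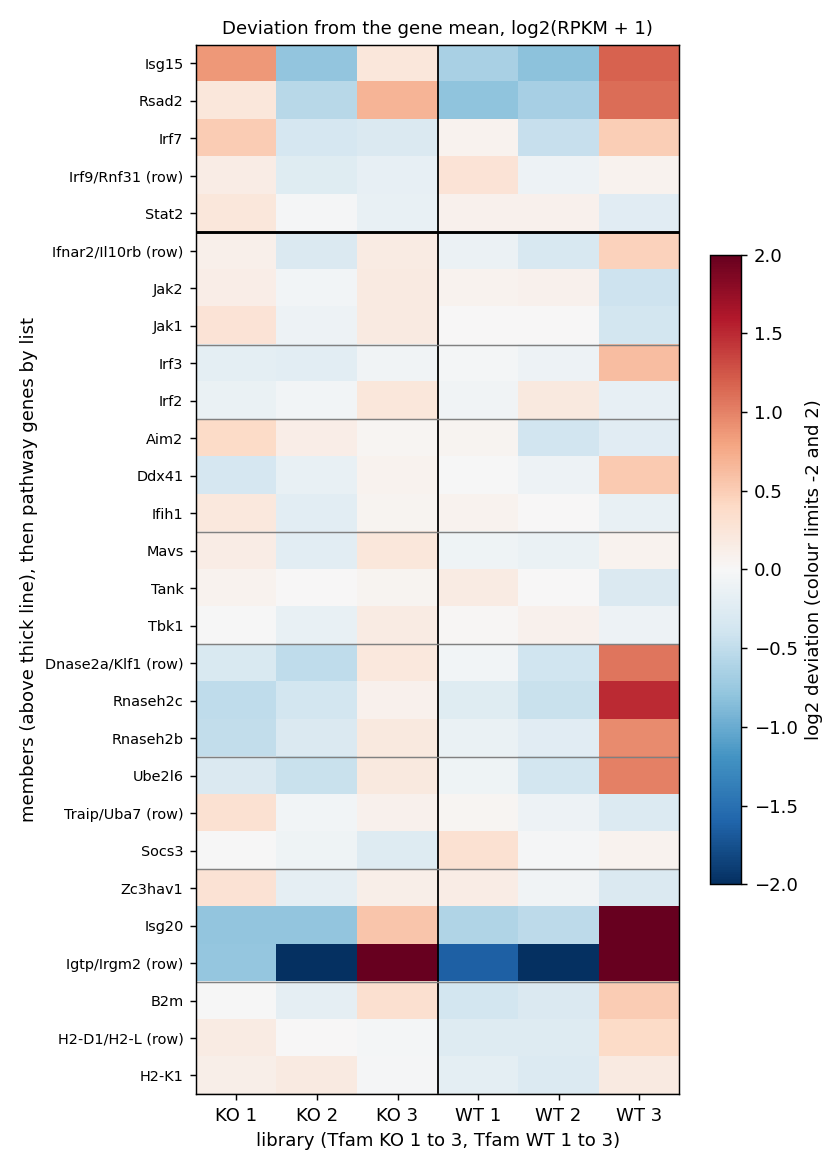
Deviation of log2(RPKM + 1) from the mean of each row over the 6 libraries, for the 5 members tested (above the thick line) and up to 3 of the most abundant rows of each pathway list (below it, lists parted by grey lines), with Tfam KO libraries left of the black line and Tfam WT libraries right of it. WT replicate 3 is red for Isg15, Rsad2, Isg20, Rnaseh2c and Ube2l6, and both libraries numbered 3 are red for the Igtp and Irgm2 row; colours stop at 2 and -2, which values of that row and of Isg20 pass.

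Across the libraries the members were highest on average in WT replicate 3 and KO replicate 1. The mean centred log2 value of the 5 tested members was 0.39, -0.39 and 0.059 in KO replicates 1, 2 and 3 and -0.20, -0.39 and 0.53 in WT replicates 1, 2 and 3. Of the 57 rows of members and pathway genes tested, WT replicate 3 held the highest value in 25 (43.9%) and KO replicate 1 in 17 (29.8%), against 41.7% and 16.0% of all rows tested. KO replicate 2 and WT replicate 2 held it in 0 of the 57, against 11.0% and 13.7% of all rows. The rows most like the member pattern, by Pearson correlation over the 6 libraries, were Tpra1 (0.985), Parp10 (0.976), Cnppd1 (0.973), Rab30 (0.969) and Oaz2 (0.966). Parp10, an ADP-ribosyltransferase, was at 6.85, 4.27 and 5.99 RPKM in KO and at 5.40, 4.17 and 8.48 RPKM in WT. With 6 libraries such values are a description only.

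Markers of other cells were read beside these genes. Erythroid markers were abundant, with a summed level of 8313 to 12350 RPKM in KO and 9614 to 13288 RPKM in WT over 8 erythroid markers on rows of their own. Macrophage markers summed to 8.33, 12.4 and 4.94 RPKM in KO and to 14.1, 13.1 and 19.6 RPKM in WT over 13 genes, 10 of them with a lower KO mean, with or without WT replicate 3, and with Cd163 and Vsig4 listed at 0. Neutrophil markers summed to 28.1 to 70.5 RPKM in KO and 38.7 to 162 RPKM in WT, with a lower KO mean in 8 of 8 genes, but in 4 of 8 without WT replicate 3, which held the highest sum. The 5 markers of plasmacytoid dendritic cells, which make much interferon, summed to 0.332 to 0.469 RPKM in KO and 0.302 to 0.525 RPKM in WT, each below 1 RPKM in mean and Cd209d listed at 0. Lymphocyte markers summed to at most 0.361 RPKM in KO and 0.577 RPKM in WT over 7 genes, with Cd3e and Ms4a1 among those listed at 0, and endothelial markers to 0.898 to 1.51 RPKM in KO and 0.639 to 1.13 RPKM in WT over 5. Hepatocyte markers (7 genes) summed to 14.7 RPKM in KO replicate 3 and 38.6 RPKM in WT replicate 3, against 80.3 and 135 RPKM in the other KO libraries and 84.2 and 54.8 RPKM in the other WT libraries. Within the WT group, Alb, Afp and Trf were lowest in WT replicate 3, while Apoa1, Apoa2, Ttr and Serpina1a were highest there. Megakaryocyte markers (4 genes) likewise had the lowest sums in the libraries numbered 3, at 18.2 RPKM in KO and 33.4 RPKM in WT. In the other libraries the sums were 46.5 to 64.5 RPKM. Of the markers summed, Pf4 and Ppbp were lowest in both libraries numbered 3. Gp9 was lowest in KO replicate 3 but highest in WT replicate 3, at 23.4 RPKM. Vwf was lowest in WT replicate 3, while its 4.30 RPKM in KO replicate 3 was above the 4.03 RPKM of WT replicate 2. The part of these cells in the levels of Isg15, Rsad2 and Isg20 was not tested, and in sorted bulk cells fewer cells of a type and less RNA per cell cannot be told apart.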

How the data were processed

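RNA was sequenced from total RNA with a TruSeq kit, per the labels' protocols. The authors deposited 1 table of RPKM values, made with TopHat and Cufflinks on build mm9, per the submitters' processing notes; for the versions, the annotation and the strand setting, no source used here gives a value. Because RPKM includes the annotated length, a length bias in 1 library shifts genes by length. Of 23119 rows, 25 without a gene name (a mean of 0.158% of the RPKM sum) were left out, and 492 name several genes. A gene on several rows was read from its row of highest mean RPKM.

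The test was limma 3.58.1 (R 4.3.3), with a variance trend, on log2(RPKM + 1) of the 8302 rows whose mean reached 1 RPKM, with Benjamini-Hochberg adjustment at 0.05 and 95% intervals. Fold changes on this scale understate those of low genes. Absolute depth is unknown and no counts were available. Ratios of values under 0.05 RPKM gave depths of 80.4% to 88.9% of that of WT replicate 2 for WT replicate 1 and KO replicates 2 and 3, where 80.3% to 82.1% of ratios fell within 0.03 log2 units of a step of whole reads. KO replicate 1 (93.0%) was less well resolved, with 44.2% of ratios on steps, and WT replicate 3 was not resolved, with 21.4%.

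The members, the lists and the alternatives were chosen with earlier results of these data known. The rule for named genes was the members, Tfam, the 3 most abundant rows of each pathway list, list genes at a mean of at least 1 RPKM whose groups do not overlap (there were 0), and the 5 rows most like the member pattern. One of the pathway list genes under this rule is left out of the text and is not reported here. Deviations from the group means correlated at 0.46, 0.17 and 0.53 between libraries with the same number, each above 0.1, which met the rule fixed for taking the numbers as pairs, although KO replicate 1 also correlated at 0.40 with WT replicate 2. No label states this pairing. The fit behind the printed intervals and p-values has no block, and the fit with the block is an alternative. Transcript lengths are the longest coding transcript in GENCODE vM21 and were found for 87.7% of tested rows. Upstream sequences are from RefSeq (GRCm38.p6), matched by symbol. Alternatives were the pseudocount (0.1, 0.5), the filter (none, 5 RPKM), quantile normalization, equal RPKM sums, no variance trend, the replicate block, and leaving out each library or both numbered 3. Figures were drawn with matplotlib 3.10.9 in Python 3.11.15.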

Additional observations from a re-analysis of the deposited data

How the results depend on the processing

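None of the members tested passed under any alternative run. The log2 fold changes moved with single libraries. Leaving out 1 library at a time gave -0.18 to 0.84 for Isg15, -0.11 to 0.85 for Rsad2, -0.35 to 0.16 for Irf7, -0.080 to 0.11 for Stat2, -0.29 to -0.074 for the Irf9 row and -0.24 to 0.0032 for Tfam, and 0 to 2 rows called of 8302, none a member. The sign turned without KO replicate 1 (Isg15, Stat2), KO replicate 2 (Irf7), KO replicate 3 (Irf7, Rsad2), WT replicate 1 (Isg15, Rsad2), WT replicate 2 (Isg15, Rsad2, Tfam) or WT replicate 3 (Irf7, Stat2). Without both libraries numbered 3, 2 rows were called, and Irf7 turned to 0.29. Quantile normalization turned Stat2 to -0.049. Equal RPKM sums moved the median of all rows from -0.019 to 0.17 and turned Irf7 to 0.13, the Irf9 row to 0.050 and Tfam to 0.077, each below that median; it also moved Isg15 to 0.43 and Rsad2 to 0.44. A pseudocount of 0.1 moved Rsad2 to 0.42. With the replicate block the estimates were as without it (0.20 for Isg15, 0.23 for Rsad2), 0 rows and 0 members passed, and it changed no call; at an unadjusted p under 0.05 it gave 324 rows in place of 100. Why these values moved was not tested. The pseudocount, the filter and the variance trend turned no direction of the members they could test; Stat2 and Rsad2 fall under a filter of 5 RPKM. Depth limits the members below 1 RPKM most, and no counting interval can be given for them.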
